A study of Mus musculus with 32 samples.

Results

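The data are RNA-seq counts from mouse photoreceptors of Per1-/-Per2Brdm1 animals (KO), compared between circadian time (CT) 22, late in the subjective night, and CT1, just after subjective dawn. The KO libraries of these times were taken by their labels, 4 at CT1 and 4 at CT22, so 8 of the 32 libraries of the study enter the comparison. All animals were 6-week-old males of the strain C57BL/6/J x 129 SvEvBrd, and photoreceptors were cut by laser capture microdissection from frozen eyes. The wild-type libraries (WT) of the same times, 4 each, serve for contrast, and the remaining KO and WT libraries, from CT10 and CT19, only help to estimate the spread. In KO, the CT1 libraries carry the animal numbers 1, 4, 5 and 6 and the CT22 libraries 1, 2, 3 and 4, and values below are given in that order. The WT library at CT1 called replicate 5 carries more than 1 animal number in its title.

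Rods and cones turn light into a signal by a cascade of opsin, the G protein transducin, a phosphodiesterase that breaks down cGMP, and cation channels that close when cGMP falls. Guanylate cyclases and their calcium sensors restore cGMP, and arrestin, opsin kinase and the RGS9 complex end the response. Photoreceptors pack mitochondria into their inner segments, and part of the respiratory chain is encoded in the mitochondrial genome itself, with the rest encoded in the nucleus. Bipolar, amacrine, horizontal and ganglion cells and the cell bodies of Müller glia lie in the inner retina. Their genes serve here as inner retina markers, though some, such as Otx2, are also expressed by photoreceptors. Per1 and Per2 encode repressors of the circadian clock, and in the study the eyes were sampled around the daily peak at which the pigment epithelium engulfs shed photoreceptor tips.

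Library totals in the 8 KO libraries ran from 25402578 to 32880644 counts. KO CT22 replicates 2 and 4 had the fewest, 26156655 and 25402578, and they also stood apart in rod content, with a mean level of the rod phototransduction list of 11.20 and 11.18 log2 CPM against 11.44 to 11.56 in the other KO libraries of these times. The list results that these libraries move most are given with and without them. Levels are CPM, counts relative to the library total, scaled by edgeR's TMM method, and a difference is the log2 of CT1 over CT22 from edgeR's quasi-likelihood fit. In the targeted genes, Per1 read 184, 208, 195 and 198 CPM at CT1 and 201, 170, 215 and 323 CPM at CT22 in KO, against 94.4 to 146 CPM in the WT libraries of these times. Per2 read 204, 206, 169 and 206 CPM at CT1 and 212, 168, 186 and 267 CPM at CT22 in KO, against 24.9 to 44.3 CPM in WT. Both genes thus read higher in every KO library than in any of these WT libraries. Counts over whole genes do not resolve the altered exons and so do not check the deletions.

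Between CT1 and CT22 in KO, 0 of 17871 tested genes passed an adjusted p of 0.05 in edgeR's test (0% called), and DESeq2 also called 0. At an unadjusted p under 0.05 there were 935 genes (5.23%), of which 499 stood higher at CT1 (2.79%) and 436 lower (2.44%), and DESeq2 gave 1022. The gene with the smallest p was Gcnt4, a glycosyltransferase gene, at 1.23 ± 0.0532 CPM at CT1 and 2.29 ± 0.428 CPM at CT22 (SD, n = 4), with a log2 difference of -0.90 (SE 0.21) and an adjusted p of 0.900 in edgeR. No mitochondrial, phototransduction or inner retina gene was called. A p that misses the threshold does not show that the levels were equal, so estimates are given below with their intervals. The middle 90% of the estimates of all tested genes lay between -0.55 and 0.46, their median was -0.0015, and 49.6% were above 0.

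**Figure D1:**
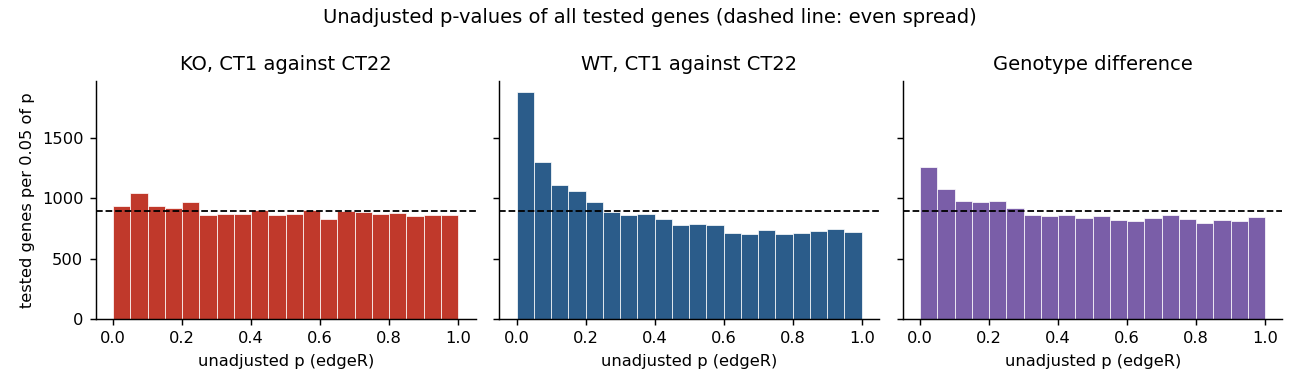
Number of tested genes (vertical axis) per 0.05-wide bin of the unadjusted edgeR p-value (horizontal axis) for CT1 against CT22 in KO, for the same times in WT, and for the difference between the genotypes. The dashed line is an even spread over bins; the lowest bin holds 935 genes in KO, 1879 in WT and 1258 for the genotype difference.

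Mitochondrially encoded genes had the highest median estimate of the 3 groups under study, at 0.54 on the log2 scale. Of the 37 genes of the mitochondrial genome, 19 passed the filter on low counts: 11 of 13 protein genes, both ribosomal RNAs and 6 of 22 transfer RNAs. Estimates were above 0 for 18 of these 19, beside 49.6% of all tested genes. An unadjusted p under 0.05 in edgeR was found for 8, all with CT1 higher, beside 2.79% of all tested genes. They were mt-Nd1, mt-Nd2, mt-Nd4, mt-Nd5, mt-Nd6, mt-Cytb, mt-Co1 and mt-Tm. mt-Tm was at low levels, 1.30, 0.633, 0.192 and 0.594 CPM at CT1 and 0.459, 0.209, 0.186 and 0.258 CPM at CT22. Among the 11 protein genes alone, all were above 0 and 7 reached that threshold. None of the 19 was called, and their lowest adjusted p was 0.900 in edgeR. In none of the 19 did all CT1 libraries lie above all CT22 libraries, an arrangement found in 1.92% of all tested genes. The filter dropped mt-Nd4l, with 119 counts over all 32 libraries, mt-Atp8, with 11, and 16 transfer RNAs with 0 to 129 counts each.

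The share of all counts on the mitochondrial genome was 2.29%, 1.98%, 1.64% and 1.91% in the KO CT1 libraries. At CT22 it was 1.80%, 1.21%, 1.37% and 1.27%. Replicate 1 of CT22 lay within the CT1 range, and the other CT22 libraries lay below it. The same share in WT was 1.36%, 1.86%, 1.16% and 1.55% at CT1 (animal numbers 1, 3, 4 and 5) and 1.56%, 1.54%, 1.70% and 1.90% at CT22 (animal numbers 1, 2, 3 and 6). The WT groups overlapped, with the lower mean at CT1.

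**Figure D2:**
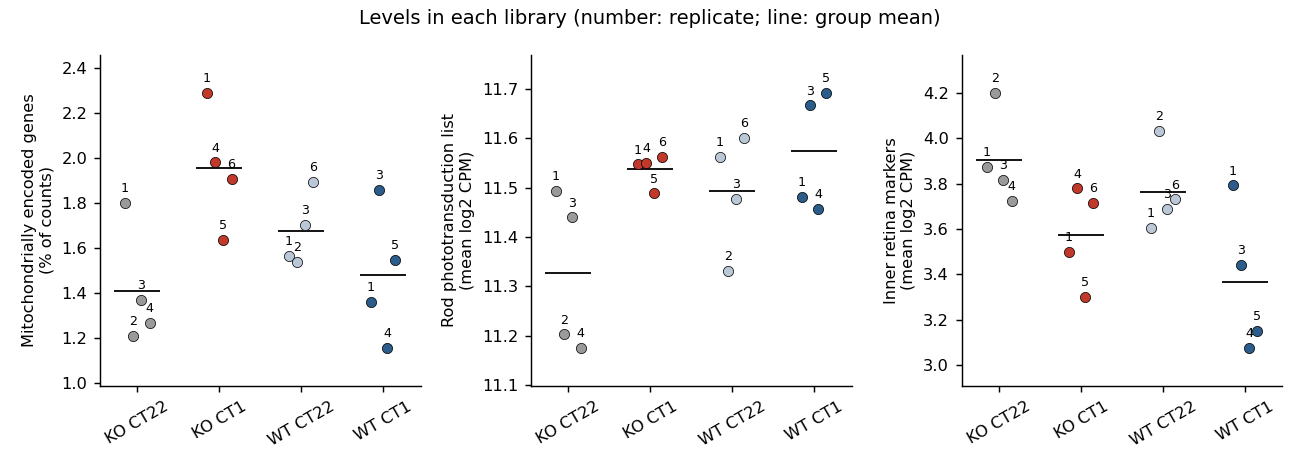
Each point is 1 library, labelled by its animal number, and each line a group mean; the panels show the share of counts on mitochondrially encoded genes (percent) and the mean log2 CPM of the rod phototransduction and inner retina lists. In KO the mitochondrial share at CT1 runs from 1.64% to 2.29% with CT22 replicate 1 inside that range, and CT22 replicates 2 and 4 are lowest of the KO libraries in the rod panel.

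Among the complex I subunits, which take electrons from NADH, mt-Nd5 (ENSMUSG00000064367, mitochondrial genome of GRCm38, 11742 to 13565, plus strand) read 2819, 2137, 1708 and 2063 CPM at CT1 in KO and 1815, 1206, 1275 and 1220 CPM at CT22. All CT1 libraries lay above CT22 replicates 2, 3 and 4, and replicate 1 lay above the lowest CT1 library. The estimate was 0.66 (SE 0.21, 95% interval 0.24 to 1.09, unadjusted p = 0.00338, adjusted p = 0.900 in edgeR). Its gene overlaps mt-Nd6 (13552 to 14070) on the opposite strand, and without the strand setting their shared reads cannot be told apart. mt-Nd6 itself read 127, 108, 86.7 and 104 CPM at CT1 and 111, 62.4, 83.4 and 71.1 CPM at CT22, with an estimate of 0.37 (SE 0.18). mt-Nd1 (2751 to 3707) read 3211, 2561, 2139 and 2437 CPM at CT1 and 2203, 1385, 1730 and 1565 CPM at CT22, with an estimate of 0.59 (SE 0.20). In mt-Nd1 as in mt-Nd5, only CT22 replicate 1 reached into the CT1 range. mt-Nd2 and mt-Nd4 had estimates of 0.70 (SE 0.24) and 0.53 (SE 0.18).

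The later complexes of the chain gave similar sizes. mt-Cytb (14145 to 15288), the mitochondrially encoded subunit of complex III, read 7718, 7195, 5718 and 6688 CPM at CT1 and 6371, 3627, 4795 and 3990 CPM at CT22. CT22 replicate 1 again lay within the CT1 range, and the estimate was 0.54 (SE 0.18, 95% interval 0.17 to 0.91, adjusted p = 0.900 in edgeR). mt-Co1 (5328 to 6872), the catalytic subunit of complex IV, read 4101, 3478, 3064 and 3542 CPM at CT1 and 3391, 2156, 2280 and 2124 CPM at CT22. Its estimate was 0.51 (SE 0.19), with CT22 replicate 1 well above the other CT22 libraries. The ribosomal RNA mt-Rnr2 read 1404, 1103, 676 and 1018 CPM at CT1 and 938, 621, 627 and 630 CPM at CT22, and here the groups overlapped in CT1 replicate 5 and CT22 replicate 1. Of the tested transfer RNAs, mt-Tm had the highest estimate, 1.26 (SE 0.57), and mt-Tw was the only mitochondrial gene below 0, at -0.24 (SE 0.39), both at under 2 CPM in these libraries.

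**Figure D3:**
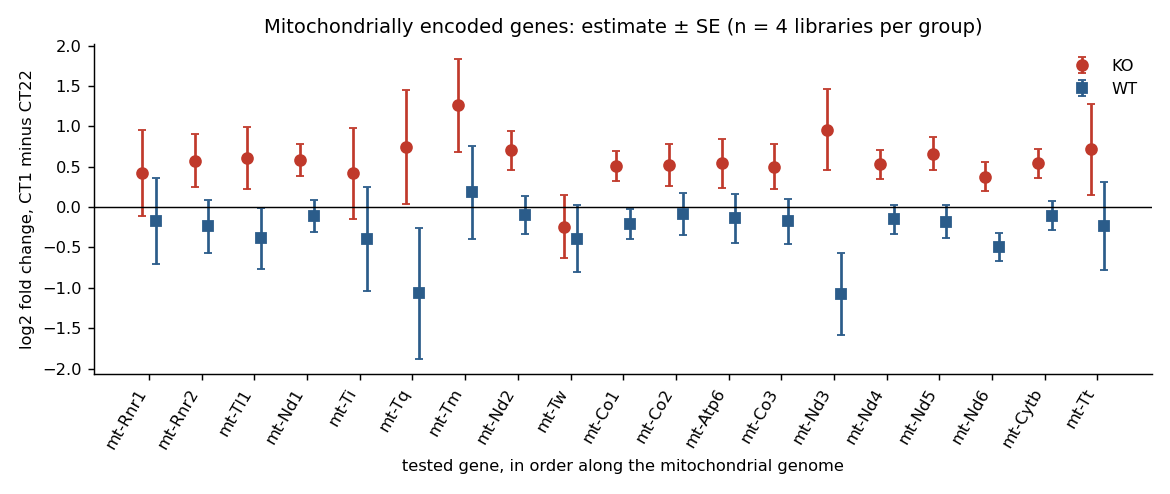
Estimated log2 difference of CT1 minus CT22 (vertical axis, bars are ± 1 SE, 4 libraries per group) for the 19 tested mitochondrially encoded genes in their order along the genome, in KO (circles) and WT (squares). In KO 18 of 19 lie above 0, and in WT 1 of 19 does.

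The table of counts also holds pseudogenes in the nuclear genome that copy mitochondrial genes, and these bear on how mitochondrial reads are counted. By alignment, 11 tested genes on chromosomes 1, 2 and 13 matched a mitochondrial gene over at least 100 bases at 95.2% to 100% identity. The sequences below show how little separates such a copy from its source: 60 bases of Gm13340 (GRCm38 chromosome 2, 22588103 to 22589647, minus strand) beside the same bases of mt-Co1, and the first 60 bases of Gm28438 (chromosome 1, 24612775 to 24613119, minus strand) beside those of mt-Nd3 (9459 to 9806). Capitals mark the mismatched bases, 4 in the former pair and 1 in the latter.
Gm13340: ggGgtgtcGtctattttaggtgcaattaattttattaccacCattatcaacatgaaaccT
mt-Co1: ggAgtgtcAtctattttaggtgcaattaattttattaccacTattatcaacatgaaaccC
Gm28438: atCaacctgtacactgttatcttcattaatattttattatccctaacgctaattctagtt
mt-Nd3: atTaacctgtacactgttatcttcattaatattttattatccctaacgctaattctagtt

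Estimates for these copies had the sign of those for the mitochondrial genes. All 11 copies had estimates above 0 in KO, from 0.40 to 0.72 with a median of 0.56, 10 had an unadjusted p under 0.05, and none was called. On that side were 2.79% of all tested genes. In 7 of the 11 all CT1 libraries lay above all CT22 libraries, beside 1.92% of all tested genes. Gm28661 (chromosome 1, 24614885 to 24615565), which matches mt-Co2 at 100% over 681 bases, read 244 ± 24.9 CPM at CT1 and 172 ± 34.9 CPM at CT22 (SD, n = 4), while mt-Co2 itself was listed at 1.44 to 3.51 CPM in these libraries. Gm10925, which matches mt-Atp6 at 100% over 678 bases, read 363 ± 84.1 CPM at CT1 and 256 ± 45.7 CPM at CT22, while mt-Atp6 was listed at 1.36 to 4.25 CPM. In both pairs the nuclear copy held nearly all counts. How reads that match several places were treated is not given in the sources used here, so the counts of a copy and its source cannot be told apart. With each copy's counts added to its source, mt-Co2 read 251 ± 25.8 CPM at CT1 and 177 ± 35.9 CPM at CT22, with an estimate of 0.50 (SE 0.18). All 9 genes so pooled had estimates between 0.40 and 0.72, with an adjusted p of 0.903 in edgeR. The mitochondrial share of counts with the copies included was 1.79% to 2.48% at CT1 and 1.31% to 1.95% at CT22.

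Genes of the respiratory chain that lie in the nucleus had estimates on both sides of 0. Of 87 listed subunits of complexes I to IV and of ATP synthase, 82 were tested, and their median estimate in KO was 0.00074, with 42 above 0 and 0 at an unadjusted p under 0.05 in edgeR. The 38 nuclear complex I subunits had a median of 0.01, beside 0.62 for the 6 tested mitochondrial complex I subunits. In complex III the nuclear median was -0.06 over 9 subunits, beside 0.54 for mt-Cytb. These medians are descriptions, and the difference between the groups of genes was not tested. The members with the smallest p were Cox4i2, an isoform of a complex IV subunit, at -0.59 (SE 0.33), and Cox6c, another complex IV subunit, at 0.19 (SE 0.13). The 73 tested cytosolic ribosomal protein genes had a median of 0.01. Both medians near 0 moved in either direction with the KO CT22 libraries left out. Without replicates 2 and 4 the nuclear respiratory chain median was -0.21, with 8 of 82 above 0 and 7 lower at an unadjusted p under 0.05, and the ribosomal median was also -0.21, with 8 of 73 above 0. Leaving out replicate 4 alone gave -0.10 for each list. Without replicate 1 alone the medians were 0.054 (58 of 82 above 0) and 0.13 (54 of 73 above 0). Without replicate 3 alone they were 0.045 and 0.062.

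The WT libraries gave the opposite sign for the mitochondrial genes. In WT the median of the 19 was -0.18, 1 was above 0 (51% of all tested genes were), and 2, mt-Nd6 and mt-Nd3, stood lower at an unadjusted p under 0.05. Of these, mt-Nd3 was near the floor, at 0.0699 to 0.526 CPM in the WT libraries of these times. Its nuclear copy Gm28438 held more counts, with means of 27.1 CPM at CT1 and 34.9 CPM at CT22 in WT. The copy's WT estimate was -0.36 (SE 0.25), and 0 of the 11 copies stood lower in WT at that threshold. Across all genes edgeR called 0 in WT (0%), with 1879 (10.5%) at an unadjusted p under 0.05, of which 995 were higher (5.57%) and 884 lower (4.95%), and DESeq2 called 9. mt-Nd6 in WT read 64.8, 94.8, 57.2 and 85.5 CPM at CT1 and 104, 112, 109 and 101 CPM at CT22. All WT CT1 libraries lay below all CT22 libraries for this gene, as did 1.72% of tested genes.

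The difference between the genotypes was tested itself, as the KO estimate minus the WT estimate. It was above 0 for all 19 mitochondrial genes, beside 48.9% of all tested genes, with a median of 0.80, and 8 had an unadjusted p under 0.05, beside 3.24% of all tested genes on that side. Among the 8 was mt-Nd3, near the floor, at 2.03 (SE 0.72), or 1.07 with its copy's counts added. edgeR called 0 genes of 17871 for this difference (0%), with 1258 (7.04%) at an unadjusted p under 0.05, and DESeq2 called 3, none of them in a list. The smallest p among the mitochondrial genes was that of mt-Nd6, with a genotype difference of 0.87 (SE 0.25, unadjusted p = 0.00190, adjusted p = 0.649 in edgeR). mt-Nd5 differed by 0.84 (SE 0.29, unadjusted p = 0.00748). For the nuclear respiratory chain genes the median genotype difference was -0.16, with 70 of 82 below 0. Their median was 0.16 in WT, with 74 above 0, beside 0.00074 in KO. Cytosolic ribosomal protein genes likewise had a WT median of 0.21, and a median genotype difference of -0.21 with 57 of 73 below 0. The opposite signs of the mitochondrial genes in KO and WT are estimates that did not pass the adjusted test of their difference.

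The mitochondrial result rests in part on the CT22 libraries with the fewest counts, replicates 2 and 4. These also had the lowest mitochondrial shares of the KO CT22 libraries, 1.21% and 1.27%, so leaving them out had to shrink the difference in share. Numbers of genes at a threshold from fewer libraries are not comparable with those of the full fit, for this and the other lists. Without KO CT22 replicates 2 and 4, a choice made after seeing the data, the median of the 19 genes was 0.34, 16 were above 0 and 0 had an unadjusted p under 0.05. edgeR then called 2 genes in KO, Gm6277 and Cables1, both higher at CT1, outside every list and named after their values were seen. In the other direction, leaving out KO CT22 replicate 1 gave a median of 0.69 with 9 genes at an unadjusted p under 0.05. Titles also carry a running number by which libraries fall into 4 runs of 8, each with 1 library per group, and within every run the mitochondrial share was higher at KO CT1 than at KO CT22. With the run as a term in the fit the median was 0.55, and with the inner retina level of each library as a term it was also 0.55.

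Rod phototransduction genes stood higher at CT1 by small amounts. All 21 listed genes were tested, 19 had estimates above 0, and the median was 0.20. None was called by edgeR, and 8 had an unadjusted p under 0.05, all with CT1 higher, beside 2.79% of tested genes. In 5 all CT1 libraries lay above all CT22 libraries, beside 1.92% of tested genes. Those 5 were Gucy2e, Rgs9, Pdc, Grk1 and Guca1b. The mean level of this list ran from 11.18 to 11.56 log2 CPM over the 8 libraries, and KO CT22 replicates 2 and 4 were the lowest of them. Without another tissue beside it, this level does not test the tissue label.

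The cyclases that remake cGMP were among the clearest members. Gucy2e (ENSMUSG00000020890, GRCm38 chromosome 11, 69218117 to 69237036, minus strand), a retinal guanylate cyclase, read 1450, 1493, 1450 and 1491 CPM at CT1 and 1263, 1156, 1235 and 1200 CPM at CT22. Every CT1 library lay above every CT22 library, and the estimate was 0.28 (SE 0.10, 95% interval 0.08 to 0.47, unadjusted p = 0.00728, adjusted p = 0.900 in edgeR). Gucy2f, the second such cyclase, read 803, 641, 563 and 690 CPM at CT1 and 566, 552, 493 and 472 CPM at CT22, with an estimate of 0.37 (SE 0.13). Only CT1 replicate 5 fell within the CT22 range for Gucy2f. Their calcium sensors differed from each other. Guca1b had an estimate of 0.26 (SE 0.15) with no overlap of the groups, and Guca1a one of -0.06 (SE 0.13) with overlap.

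The window of Gucy2e from 250 bases before to 50 bases after its start (RefSeq, GRCm38.p6, chr11:69236973-69237272, minus strand) is shown because its only capitals, GGATTA, are a site for CRX, the homeodomain factor of photoreceptors, read on the opposite strand as TAATCC.
Gucy2e: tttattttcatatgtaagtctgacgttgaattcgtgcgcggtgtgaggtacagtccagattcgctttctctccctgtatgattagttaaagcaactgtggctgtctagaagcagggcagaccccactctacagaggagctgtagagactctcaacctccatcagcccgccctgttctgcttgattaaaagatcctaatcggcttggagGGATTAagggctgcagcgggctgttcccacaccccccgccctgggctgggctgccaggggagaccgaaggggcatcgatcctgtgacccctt
Of the 21 rod genes, 14 matched a promoter, and 8 of these (57.1%) held TAATCC on either strand, beside 7.16% of 27025 promoters. It was found in 1 of 8 matched cone promoters (12.5%) and in 3 of 15 matched bipolar promoters (20%). The clock motif CACGTG, the E-box, was in 0 of the 14 rod promoters and in 5 of 19 core clock promoters (26.3%), beside 7.24% of all. A match is a stretch of letters and not a measured binding site.

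Channels, transducin and phosphodiesterase followed. Slc24a1 (chromosome 9, 64922861 to 64951607, minus strand), the rod exchanger that carries calcium out, had the smallest p of the list and read 3712, 3675, 3412 and 3865 CPM at CT1 and 3450, 2460, 3106 and 2537 CPM at CT22. Its estimate was 0.34 (SE 0.12, 95% interval 0.11 to 0.58, unadjusted p = 0.00576, adjusted p = 0.900 in edgeR), and CT22 replicate 1 lay just above the lowest CT1 library. Cnga1 and Cngb1, the subunits of the rod cGMP-gated channel, both had estimates of 0.20 (SE 0.10 and 0.09). Gngt1, the gamma subunit of rod transducin, read 2002, 1957, 1787 and 2131 CPM at CT1 and 1967, 991, 1536 and 1184 CPM at CT22, with an estimate of 0.47 (SE 0.19). CT22 replicate 2 was the lowest library for Gngt1. The phosphodiesterase subunits Pde6a, Pde6b and Pde6g had estimates of 0.24 (SE 0.11), 0.13 (SE 0.09) and 0.20 (SE 0.14).

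Gnat1, the alpha subunit of rod transducin and a defining rod marker, read 18665, 22539, 19581 and 20655 CPM at CT1 and 20983, 13256, 19476 and 14320 CPM at CT22. CT22 replicates 2 and 4 were far below the other libraries, and replicates 1 and 3 lay within the CT1 range. The estimate of 0.26 (SE 0.13) became -0.0020 without replicates 2 and 4. The median of the whole list was then 0.06, with 14 of 21 above 0 and 1 at an unadjusted p under 0.05. Leaving out replicate 2 alone left 4 such genes, and leaving out replicate 4 alone left 3. Gucy2e had an estimate of 0.22 (SE 0.12) without both.

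Among the genes that end the light response, Rgs9, which speeds the shutoff of transducin, read 1124, 1143, 975 and 1157 CPM at CT1 and 886, 938, 899 and 803 CPM at CT22, with an estimate of 0.32 (SE 0.13). Pdc, which binds the transducin beta and gamma subunits, read 4016, 3804, 3806 and 3860 CPM at CT1 and 3694, 2839, 3545 and 2915 CPM at CT22, with an estimate of 0.25 (SE 0.11). In both genes the times did not overlap. Grk1, the opsin kinase, had an estimate of 0.14 (SE 0.08), also without overlap, and the rod arrestin gene Sag one of 0.11 (SE 0.18), with overlap. In WT the rod list had a median of 0.09, 1 gene higher at an unadjusted p under 0.05 and 0 genes with all CT1 libraries above all CT22 libraries (1.93% of tested genes), and the genotype difference had a median of 0.11, with 3 genes above 0 and 1 below at that threshold (3.24% and 3.8% of tested genes) and none called.

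**Figure D4:**
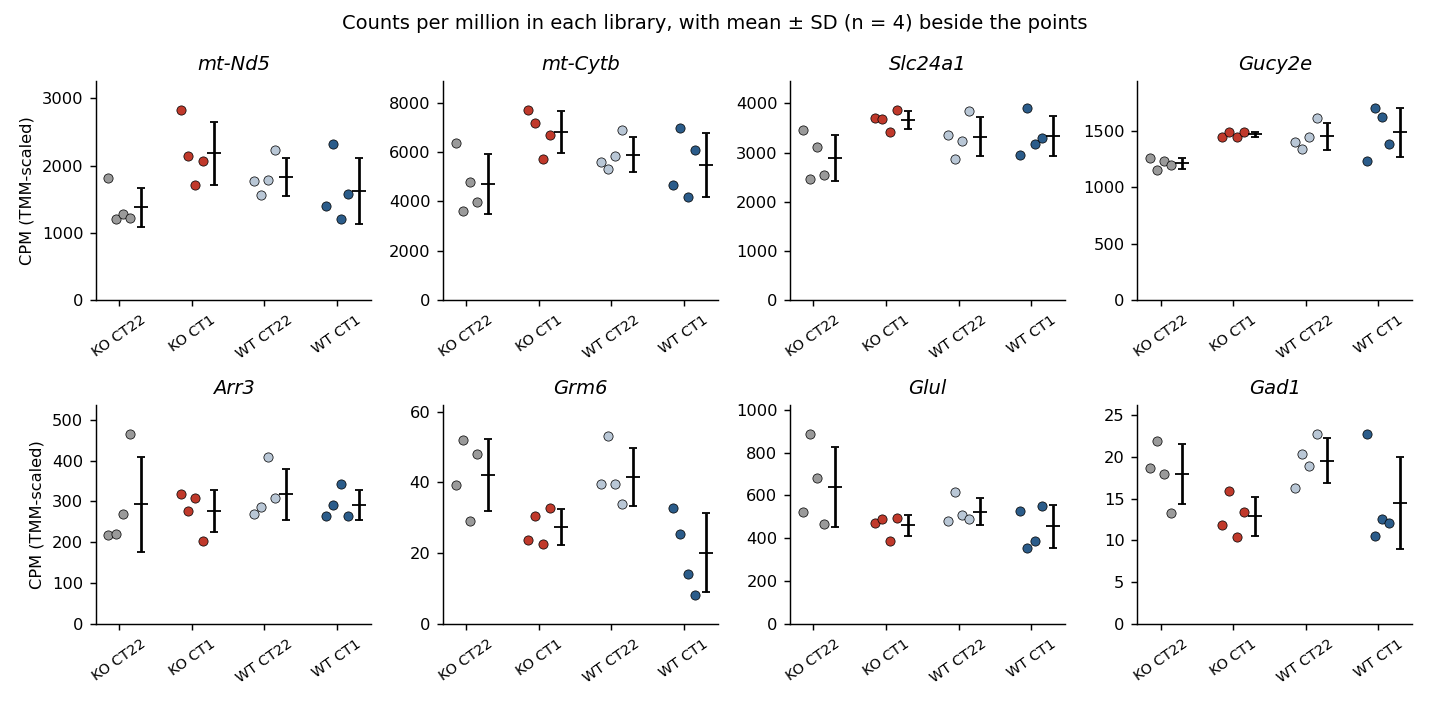
CPM per library (vertical axis, from 0) for 8 genes in KO and WT at CT22 and CT1; points are libraries, and the bar beside them is the mean ± SD of 4. For Gucy2e every KO CT1 point lies above every KO CT22 point (1450 to 1493 against 1156 to 1263 CPM), while for mt-Nd5, mt-Cytb and Slc24a1 a CT22 library reaches into the CT1 range.

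Outer segment genes, from a list of 24, leaned the same way less evenly, with a median of 0.07 and 20 estimates above 0. None was called by edgeR, and 4 were higher at an unadjusted p under 0.05, beside 2.79% of tested genes. Without CT22 replicates 2 and 4 the median was 0.037, with 15 above 0, 1 higher and 1 lower at that threshold. Abca4, the disk flippase that clears retinal adducts, read 3008, 3057, 2659 and 3099 CPM at CT1 and 2630, 2272, 2453 and 2303 CPM at CT22. Its groups did not overlap, and its estimate was 0.29 (SE 0.09, unadjusted p = 0.00231, adjusted p = 0.900 in edgeR). Impg1, a proteoglycan of the matrix around photoreceptors, had an estimate of 0.39 (SE 0.14). Among photoreceptor transcription factors, Rorb read 1075, 922, 753 and 935 CPM at CT1 and 783, 673, 680 and 825 CPM at CT22, with an estimate of 0.32 (SE 0.12) and an overlap of CT1 replicate 5 with CT22. In WT Rorb had an estimate of -0.25, and the genotype difference of 0.57 (SE 0.17) had an unadjusted p of 0.00242 and an adjusted p of 0.649 in edgeR.

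Cone phototransduction genes had estimates on both sides of 0. The 13 listed genes had a median estimate of -0.09, with 4 above 0, none called and 0 at an unadjusted p under 0.05 in edgeR. Opn1mw, the medium-wave opsin gene, read 222, 214, 149 and 162 CPM at CT1 and 237, 171, 240 and 173 CPM at CT22, and the times overlapped. Arr3, the cone arrestin gene, read 318, 277, 309 and 203 CPM at CT1 and 217, 220, 269 and 465 CPM at CT22, with CT22 replicate 4 highest of all. Its estimate of -0.08 had a 95% interval from -0.66 to 0.50. Pde6h, a cone phosphodiesterase subunit, had the estimate farthest from 0, -0.49 (SE 0.29), and shares exons with Arhgdib on the other strand. Without CT22 replicates 2 and 4 the cone median was -0.22, with 3 genes lower at an unadjusted p under 0.05, and without CT1 replicate 6 alone it was 0.025.

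**Figure D5:**
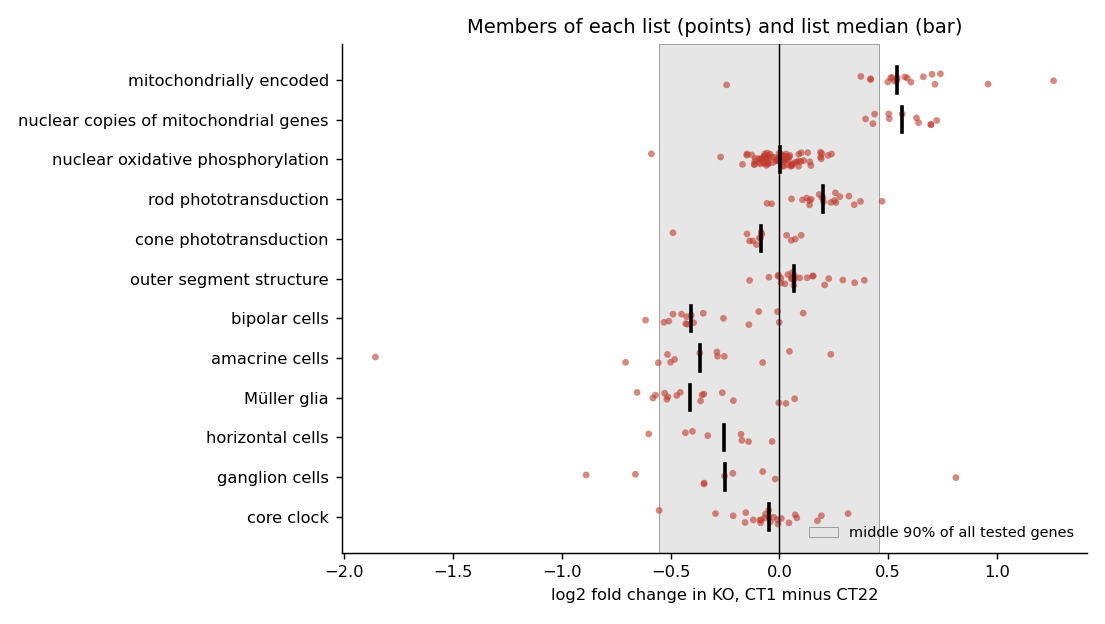
Estimated log2 difference of CT1 minus CT22 in KO (horizontal axis) for each tested member of a list (points), with the list's median (vertical bar); the grey band is the middle 90% of all tested genes, from -0.55 to 0.46. Mitochondrially encoded genes (median 0.54) lie to the right, most inner retina markers to the left, and nuclear respiratory chain genes around 0.

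Inner retina markers read lower at CT1. Of 64 listed, 63 were tested, 57 had estimates below 0, and the median was -0.36. None was called by edgeR, and 8 had an unadjusted p under 0.05, all with CT1 lower, beside 2.44% of tested genes. In 4 all CT1 libraries lay below all CT22 libraries, beside 1.72% of tested genes. Leaving out CT22 replicate 2 moved the median to -0.22 and the 8 to 2, and leaving out CT22 replicate 4 moved the 8 to 14. They became 4 without CT1 replicate 1, 2 without CT1 replicate 5 and 25 of 61 in a fit of only the libraries compared. Over all tested genes, the alternative fits in KO gave 720 to 1292 genes at that threshold, in either direction. In bulk tissue, fewer cells of a type and less RNA per cell cannot be told apart. The mean log2 CPM of the list was 3.50, 3.78, 3.30 and 3.72 at CT1 and 3.87, 4.20, 3.82 and 3.72 at CT22, so CT22 replicate 4 lay within the CT1 range and replicate 2 stood highest. The part that inner retina content plays in the rod and mitochondrial estimates was not measured. A fit with that level as a term gave a rod median of 0.14 with 3 genes at an unadjusted p under 0.05. The level comes from the same scaled counts, so that fit does not separate content from expression.

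Bipolar cells receive the photoreceptor signal, and their 17 markers had a median of -0.41, or -0.20 without CT22 replicate 2. Grm6, the glutamate receptor of ON bipolar cells, read 23.8, 30.4, 22.7 and 32.9 CPM at CT1 and 39.4, 51.9, 29.01 and 48.0 CPM at CT22. CT22 replicate 3 lay within the CT1 range, and the estimate was -0.62 (SE 0.33, 95% interval -1.30 to 0.07). Scgn, a calcium-binding protein gene, had the smallest p of these markers, with an estimate of -0.53 (SE 0.25), and Pcp2 was without overlap, at -0.41 (SE 0.27). Prkca, a marker of rod bipolar cells, had an estimate of -0.01 (SE 0.11), and Otx2, which photoreceptors also express, one of -0.09 (SE 0.09). Grm6, Pcp2 and Otx2 each share exons with a gene on the other strand.

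Amacrine markers, 13 in all, had a median of -0.37. Gad1, which makes the transmitter GABA, read 11.9, 15.9, 10.4 and 13.4 CPM at CT1 and 18.7, 21.9, 18.01 and 13.3 CPM at CT22, where only replicate 4 overlapped with CT1. Its estimate was -0.48 (SE 0.23, unadjusted p = 0.0484, adjusted p = 0.900 in edgeR). Th, the rate-limiting enzyme of dopamine synthesis, read 0.0351, 0.0633, 0.0640 and 0.125 CPM at CT1 and 0.153, 0.383, 0.342 and 0.222 CPM at CT22. All CT1 libraries lay below CT22, with an estimate of -1.86 (SE 0.66), but at these levels a library holds few counts of this gene. Slc32a1, the vesicular GABA transporter, was also without overlap, at -0.71 (SE 0.44).

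The 16 Müller glia markers had a median of -0.41, or -0.25 without CT22 replicate 2. Glul, glutamine synthetase, read 470, 490, 390 and 496 CPM at CT1 and 524, 888, 680 and 467 CPM at CT22, where replicate 2 stood highest and replicate 4 lay within the CT1 range. Its estimate was -0.47 (SE 0.23), and its gene shares exons with Teddm2 on the other strand. Hes1, a Notch target, read 1.82, 2.12, 2.14 and 2.25 CPM at CT1 and 3.03, 4.91, 2.92 and 2.29 CPM at CT22, without overlap and with an estimate of -0.65 (SE 0.26), and Sox9, a glial transcription factor, had one of -0.51 (SE 0.22). Horizontal and ganglion cell markers both had medians of -0.25, over 8 and 9 tested genes. Single libraries moved them: the horizontal median was -0.12 without CT22 replicate 2 and -0.41 without CT22 replicate 3, and the ganglion median was -0.72 without CT1 replicate 4 and -0.052 without CT1 replicate 5. Sncg, a ganglion cell gene, had an estimate of -0.89 (SE 0.36), and Rbpms, another, one of 0.81 (SE 0.50).

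With all libraries kept, and taken over all inner retina markers together, this lean was of like size in WT, while single cell types differed. There the median of the 63 inner retina markers was -0.39, 18 stood lower at an unadjusted p under 0.05 (4.95% of all tested genes), 10 had all CT1 libraries below all CT22 libraries (1.72% of all), and none was called by edgeR. The genotype difference had a median of 0.03, with 34 of 63 above 0 and 1 at an unadjusted p under 0.05. By cell type the WT medians were -0.44 for bipolar, -0.44 for amacrine, -0.27 for Müller, -0.63 for horizontal and -0.11 for ganglion markers. The genotype difference was above 0 for 13 of 17 bipolar, 8 of 13 amacrine and all 8 horizontal markers. It was below 0 for 12 of 16 Müller and 8 of 9 ganglion markers. Grm6 was at -1.04 (SE 0.34) in WT, and its genotype difference was 0.42 (SE 0.47). Without KO CT22 replicates 2 and 4 the KO median was -0.26, with 1 marker lower at an unadjusted p under 0.05.

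Markers of other tissues of the eye went in different directions. The 13 tested vessel and immune cell genes had a median of -0.35 with 1 above 0, 1 lower at an unadjusted p under 0.05 and none called by edgeR. All 15 lens genes had estimates above 0 in KO, with a median of 1.74, none called and 1 at an unadjusted p under 0.05 in edgeR. Cryaa, a lens crystallin gene, read 229, 464, 2305 and 520 CPM at CT1 and 68.6, 372, 522 and 218 CPM at CT22, so CT1 replicate 5 stood far above the rest. Without that library the lens median was 0.60, with 14 of 15 above 0. The mean log2 CPM of the lens list ran from 4.86 to 8.31 at CT1 and from 3.39 to 5.63 at CT22, and no lens gene was at 0 in any KO library of these times. In WT the lens median was 2.42, with 14 of 15 higher at an unadjusted p under 0.05 in edgeR (5.57% of all tested genes) and none called. In 5 of them all WT CT1 libraries lay above all WT CT22 libraries (1.93% of all). With a block by animal number the KO lens median was 2.61, with all 15 higher at that threshold and none called. The 13 tested pigment epithelium genes had a median of 0.65 in KO, 11 above 0 and none called, and without KO CT1 replicate 5 the median was 0.26. In WT their median was -0.54, with 3 above 0 (51% of all tested genes were). There 3 were lower at an unadjusted p under 0.05 in edgeR (4.95% of all tested genes) and none was called. The genotype difference was above 0 for 12 of the 13 (48.9% of all tested genes). For it 5 were higher at that threshold (3.24% of all) and none was called. Medians of opposite sign in KO and WT were thus not limited to the mitochondrial genes. In KO the pigment epithelium list means ran from 0.75 to 1.67 log2 CPM at CT1 and from 0.15 to 0.93 at CT22. No tested member was at 0 in these KO libraries. Rpe65, the isomerase that defines this tissue, read 1.61, 2.82, 3.74 and 1.63 CPM at CT1 and 1.35, 1.01, 1.96 and 2.44 CPM at CT22. Tyr, the melanin-making tyrosinase, had an estimate of 2.82 (SE 0.84, adjusted p = 0.900 in edgeR) with all CT1 libraries above CT22, at under 2 CPM. The part of lens and pigment epithelium RNA in the other estimates was not tested.

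Core clock estimates in KO were mostly small. The 24 clock genes had a median of -0.05, with 7 above 0, none called and 1, Rorb, at an unadjusted p under 0.05. Arntl, the activator BMAL1, read 95.5, 96.5, 96.6 and 101 CPM at CT1 and 101, 81.0, 98.4 and 96.7 CPM at CT22, with an estimate of 0.04 and a 95% interval from -0.08 to 0.17. Nr1d1, the repressor REV-ERB alpha, had an interval from -0.26 to 0.16, and Dbp, a D-box activator, one from -0.34 to 0.16. Both share exons with a gene on the other strand. Per1 and Per2 had estimates of -0.21 (SE 0.15) and -0.09 (SE 0.17). Clock, the partner of BMAL1, had an estimate of 0.17 (SE 0.09).

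Immediate early genes, the fast response genes of stimulated cells, had a median of -0.13 over 15 tested members, or -0.21 without CT22 replicate 4. Fos read 40.9, 36.3, 16.2 and 29.3 CPM at CT1 and 40.4, 47.5, 54.1 and 64.3 CPM at CT22, with an estimate of -0.75 (SE 0.33) and CT1 replicate 1 just inside the CT22 range. Genes for phosphatidylserine exposure and phagocytosis, 20 tested, had a median of -0.01. Atp8a2, a photoreceptor flippase, had an estimate of 0.22 (SE 0.10), and Plscr1, a scramblase family gene, one of -0.93 (SE 0.40). None of these was called.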

How the data were processed

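Photoreceptors of 6-week-old male mice were cut by laser capture. Per the labels' protocols, RNA came from the RNeasy Micro kit (Qiagen) and sequencing libraries from KAPA mRNA HyperPrep. The authors deposited raw counts per Ensembl gene, 54232 genes in 32 libraries. The submitters' processing notes name the build GRCm38.p6 and, as tools, HTSeq 0.11, HISAT2 2.1.0, Trimmomatic 0.32 and Cufflinks, without roles. Strandedness, the handling of multiply mapped reads and the gene models' release: not given in the sources used here.

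The fit used edgeR 4.0.16 (R 4.3.3). Of the genes, 17871 passed filterByExpr with its minimum count of 10 and minimum total of 15 applied to the 8 groups, and they held at least 99.9% of each library's counts. After TMM scaling, 1 fit held all 32 libraries with a mean for each group (24 residual degrees of freedom, biological coefficient of variation 0.199), tested by the robust quasi-likelihood test with Benjamini-Hochberg adjustment over all tested genes. Adjusted p-values are from this test unless DESeq2 (1.42.0) is named. Totals over all libraries ran from 23833604 to 34582742 counts, so 1 CPM before scaling rests on at least 23.8 counts. Groups were taken from the labels, and p-values treat libraries as separate animals as far as their animal numbers say. Within KO CT1 and KO CT22, library pairs differed by more than sampling noise. The fitting script was tested on simulated counts.

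The groups, lists and genes were chosen with earlier results of these data known. The naming rule took every tested mitochondrial gene, for each other list the 2 members with the smallest p in KO (or up to 6 called ones), Per1, Per2 and defining markers, of which 1 is not reported here. Other genes are named as list members, because their groups did not overlap or because they show a list's range, and were chosen after their values were seen. Lists are described by counts and medians, without a test. Positions came from the GENCODE annotation of GRCm38, nuclear copies from blastn 2.17.0 (at least 100 aligned bases at 95% identity or more), and promoters from RefSeq. Alternatives were other scalings and filters, DESeq2, only the libraries compared, blocks by animal number and by running number, the inner retina level as a term, and leaving out libraries.

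Animal numbers shared between CT1 and CT22 were 1 and 4 in KO, and libraries with the same number did not deviate together (r = -0.12 and -0.25), so the fit carries no pairing.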

Additional observations from a re-analysis of the deposited data

Results flagged for a closer look

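For each gene of the naming rule reported here and for 3 levels per library (total counts, mitochondrial share and inner retina mean), each KO group of 4 libraries was checked for a library whose gap to its nearest neighbour took up more of the group's range than Dixon's critical value at the 95% level. Of 132 such values 13 (9.85%) had one. For independent, normally distributed values chance gives about 1 in 20. Genes measured in the same libraries are not independent, and CPM were not transformed, so the 9.85% does not show an excess.

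Replicate 1 of KO CT22 stood apart at the top of its group for 4 mitochondrial genes. It read 938 CPM for mt-Rnr2 against 621 to 630 in the other 3 libraries, 3391 CPM for mt-Co1 against 2124 to 2280, 1815 CPM for mt-Nd5 against 1206 to 1275, and 1.71 CPM for mt-Tw against 0.662 to 0.776. It was also highest for the lens gene Bfsp2, at 1.38 CPM against 0.124 to 0.295.

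Replicate 5 of KO CT1 was the highest of its group for the lens genes Cryaa, at 2305 CPM against 229 to 520, and Crygs, at 633 CPM against 61.6 to 136. It was also highest for the small heat shock gene Hspb1, at 12.2 CPM against 1.54 to 2.97. The same library was lowest for Per2, at 169 CPM against 204 to 206, for Atp8a2, at 441 CPM against 515 to 529, and for Sept4, at 73.5 CPM against 75.0 to 75.1.

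Replicate 4 of KO CT1 was highest for the nuclear receptor gene Esrrb, at 1271 CPM against 1109 to 1117. Replicate 4 of KO CT22 was lowest for Atp8a2, at 388 CPM against 439 to 449.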

How the results depend on the processing

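In KO, 19 of 20 alternatives, DESeq2 among them, called 0 genes, with 720 to 1292 at an unadjusted p under 0.05. The exception left out KO CT22 replicates 2 and 4 together, chosen after seeing the data, and called 2 in KO (Gm6277 and Cables1) and 1 for the genotype difference (Gm6277). DESeq2 called 9 genes in WT and 3 for the genotype difference (Mlx, Smarca2 and Wrb, named after their values were seen). Leaving out 1 library at a time gave 0 calls in KO and for the genotype difference, and 0 to 28 in WT, the 28 without WT CT1 replicate 1. The causes were not tested.

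A replicate block by animal number gave 0 calls in KO, 2 in WT (Birc7 and Tent5c, named after their values were seen) and 0 for the genotype difference, and turned mt-Tw to 0.14. With the WT CT1 library of 2 numbers taken as number 5, each genotype shared 2 numbers, and their libraries did not deviate together.

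Of 1180 values for 63 named genes, 1168 kept their sign, and the lowest adjusted p was 0.575. With the inner retina level as a term, Rgs5 turned to 0.068. Without KO CT22 replicates 2 and 4 the estimates were -0.013 for mt-Tl1, -0.10 for mt-Ti, -0.0020 for Gnat1 and 0.18 for Arr3. Leaving out 1 library at a time, estimates ran from -0.66 to 0.18 for mt-Tw, from -0.34 to 0.00091 for Per1, from -0.19 to 0.051 for Per2 and from -0.22 to 0.23 for Arr3. List medians ran from 0.34 to 0.69 for mitochondrial, 0.06 to 0.25 for rod and -0.44 to -0.22 for inner retina genes, leaving aside the fit with the inner retina level as a term, which removes that list's difference by construction (0.01). With 4 libraries a group and a coefficient of variation near 0.2, small differences could not be resolved, least of all in genes under 1 CPM.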
